A study of Homo sapiens with 8 samples.

Results

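The response examined here is the difference between 2 responses to acute hypoxia: that of wild-type (WT) HCT116 cells and that of HCT116 cells without functional HIF1A (HIF1A-/-). All 8 libraries of the series entered the comparison, with 2 libraries in each of 4 groups. These were WT cells in normoxia, WT cells after 90 min at 1% O2, HIF1A-/- cells in normoxia and HIF1A-/- cells after 90 min at 1% O2, and all 4 groups also received the vehicle DMSO. HCT116 is a colorectal carcinoma line, and its HIF1A-/- derivative carries a deletion of internal HIF1A exons made by homologous recombination. A single derivative line was used, so loss of HIF1A and any other difference between the 2 lines cannot be told apart. PRO-seq labels RNA on polymerases that are engaged on DNA, so its reads measure nascent transcription and not the amount of mature RNA. Reads were counted in a TSS region, from 50 bp before to 500 bp after the start site of each gene, and in a gene body that begins 1001 bp from it. The features compared were those with more than 0.5 CPM (read counts scaled to the size of the library) in at least 2 libraries, which were 16686 gene bodies and 15212 TSS regions of 23193 genes, with 14494 genes in both. For each of them the log2 response of HIF1A-/- cells was subtracted from the log2 response of WT cells, and a positive difference means a larger increase, or a smaller decrease, in WT cells.

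Hypoxia-inducible factors are transcription factors built from an oxygen-labile alpha subunit, such as HIF1A or EPAS1, and the stable partner ARNT. When oxygen is plentiful, prolyl hydroxylases of the EGLN family mark the alpha subunit for destruction by the VHL ubiquitin ligase. In hypoxia the alpha subunit accumulates and binds hypoxia response elements, whose core motif is ACGTG or GCGTG, near genes of glycolysis, mitochondrial adaptation, angiogenesis and oxygen sensing.

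Library totals ran from 18125234 to 23622392 gene body reads and from 2783581 to 5966348 TSS reads. HIF1A-/- replicate 1 had the smallest TSS totals in both conditions. Counts were scaled within each library with no external standard, so values are relative to the rest of the transcribed genes. In such bulk data fewer active cells and less transcription per cell cannot be told apart. The epithelial markers EPCAM, CDH1, KRT8, KRT18 and KRT19 were transcribed in every library, and their sum together with VIL1 ranged from 102.9 to 178.6 RPKM. VIL1 itself reached only 0.0212 RPKM. The summed markers of leukocytes, endothelium, fibroblasts and hepatocytes did not exceed 3.04 RPKM in any library, and COL1A1 gave most of that value, at 1.21 to 2.98 RPKM. Reading normoxia first and hypoxia second, as in all such sentences below, HIF1A itself had gene body levels of 138 and 150 CPM and then 130 and 161 CPM in WT cells, and 165 and 137 CPM and then 175 and 158 CPM in HIF1A-/- cells. HIF1A-/- hypoxia lay above WT normoxia, and all other pairs of groups overlapped. The counted body is much longer than the deleted exons and stays transcribed, so this level does not test the genotype.

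Transcription of 64 gene bodies rose more in WT than in HIF1A-/- cells, and no gene body showed the opposite at a false discovery rate of 10% (quasi-likelihood test of edgeR, Benjamini-Hochberg adjusted over all gene bodies, the rule for every call below). These 64 made up 0.384% of the bodies tested. At an unadjusted p under 0.05 edgeR gave 555 bodies (3.33%) in the direction of the 64 and 358 (2.15%) in the other, where DESeq2 also called 0. All 64 had also risen in WT cells, where 623 bodies (3.73%) were called higher and 296 (1.77%) lower under hypoxia. In HIF1A-/- cells only 5 bodies passed upwards (0.03%) and 1 downwards (0.00599%), and an unadjusted p under 0.05 was reached by 920 (5.51%) and 685 (4.11%). These HIF1A-/- counts depended on the tool, since DESeq2 with the same replicate term called 64 higher and 98 lower. Over the 64 genes the median log2 response was 1.56 in WT cells and 0.04 in HIF1A-/- cells, and the difference ranged from 0.74 to 5.05. The corresponding medians of all bodies tested were -0.02 and 0.0033.

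The number of calls rested strongly on the replicate term and on single libraries. Without the replicate term 9 bodies were called, and leaving out 1 library at a time gave 18 without WT normoxia replicate 2, 19 without HIF1A-/- hypoxia replicate 2, 30 without WT hypoxia replicate 2 and 35 without HIF1A-/- hypoxia replicate 1. The WT calls moved as well, to 72 higher and 0 lower without the replicate term, 103 and 17 without WT normoxia replicate 2, 120 and 2 without WT hypoxia replicate 2, 324 and 348 without WT normoxia replicate 1, 350 and 131 without WT hypoxia replicate 1, 335 and 49 without HIF1A-/- hypoxia replicate 1 and 336 and 49 without HIF1A-/- hypoxia replicate 2. All 64 differences kept their positive sign in each of these settings. The settings reuse the libraries on which the 64 were picked, so the kept sign is not separate support.

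**Figure D1:**
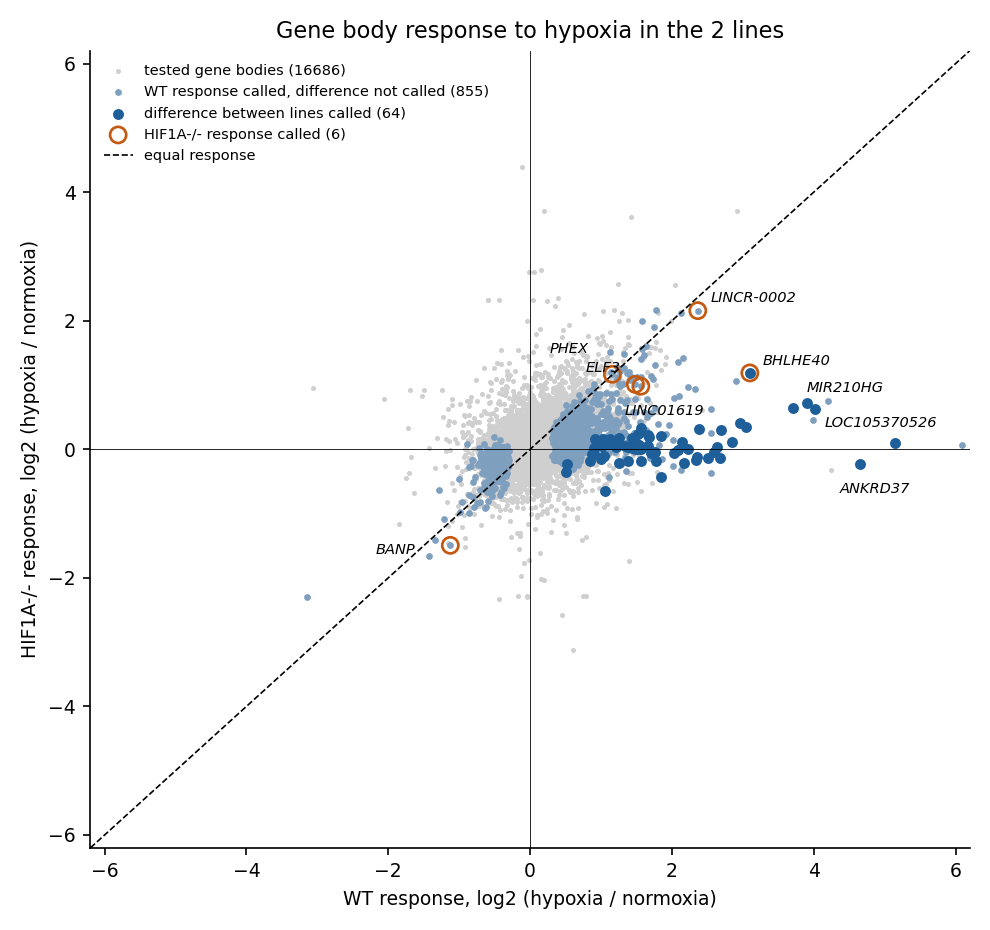
Log2 response to hypoxia of each tested gene body in WT cells (x axis) against HIF1A-/- cells (y axis). Each response compares hypoxia with normoxia in that line, within the shared fit of all 8 libraries. The 64 genes whose responses differed lie to the right, from -0.65 (PLOD1) to 0.72 (SDAD1P1) on the y axis apart from BHLHE40 at 3.10 and 1.19, and the 6 genes called in HIF1A-/- cells are circled (1 gene body lies outside the axes).

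The 15 gene bodies with the most certain differences come first. PDK1, the kinase that inactivates pyruvate dehydrogenase and so limits the entry of pyruvate into the citric acid cycle, had gene body levels of 31.9 and 39.1 CPM and then 205 and 255 CPM in WT cells, and 20.3 and 25.5 CPM and then 27.3 and 29 CPM in HIF1A-/- cells. Both WT hypoxia libraries stood far above the other 6, which ran from 20.3 to 39.1 CPM. The normoxia level was lower in HIF1A-/- than in WT cells. Both HIF1A-/- hypoxia libraries lay above both HIF1A-/- normoxia libraries, a log2 response of 0.31 that was not called (edgeR adjusted p = 0.398). PDK1 thus rose 6.5-fold in WT cells against 1.24-fold in HIF1A-/- cells, a log2 difference of 2.39 ± 0.14 (SE; edgeR adjusted p = 0.0014).

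PFKFB4, a bifunctional enzyme that sets the level of the glycolytic activator fructose-2,6-bisphosphate, went from 84.8 and 77.9 CPM to 478 and 538 CPM in WT cells and from 69.2 and 87.5 CPM to 71.2 and 88.8 CPM in HIF1A-/- cells. The HIF1A-/- libraries overlapped between conditions, with hypoxia slightly higher within each replicate, and the WT libraries did not overlap. Its difference was 2.60 ± 0.17 on the log2 scale (edgeR adjusted p = 0.0016). MIR210HG, the host transcript of the hypoxia-associated microRNA miR-210, went from 5.75 and 5.46 CPM to 78.6 and 106 CPM in WT cells and from 5.6 and 7.78 CPM to 8.21 and 12.6 CPM in HIF1A-/- cells. Here both HIF1A-/- hypoxia libraries lay above both normoxia libraries, with a log2 response of 0.63 that was not called (edgeR adjusted p = 0.292) beside a WT response of 4.01.

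KDM3A, a histone H3K9 demethylase that needs oxygen as a substrate, went from 55.2 and 57 CPM to 254 and 335 CPM in WT cells and from 52 and 64.6 CPM to 66.2 and 79.2 CPM in HIF1A-/- cells. WT hypoxia was clear of all other libraries, and the HIF1A-/- hypoxia libraries lay just above those in normoxia, a log2 response of 0.32 that was not called (edgeR adjusted p = 0.375). The log2 difference was 2.06 ± 0.14 (edgeR adjusted p = 0.0016). BNIP3, a receptor for mitophagy on the outer mitochondrial membrane, went from 16 and 12.2 CPM to 86 and 93.4 CPM in WT cells and from 16.5 and 11.6 CPM to 14 and 11.4 CPM in HIF1A-/- cells. The 6 libraries other than WT hypoxia lay between 11.4 and 16.5 CPM. DDIT4, an inhibitor of mTORC1 signalling, went from 21.2 and 25.9 CPM to 140 and 203 CPM in WT cells and from 8.18 and 14.8 CPM to 7.96 and 17.3 CPM in HIF1A-/- cells. It started lower in HIF1A-/- cells and its HIF1A-/- libraries overlapped between conditions.

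**Figure D2:**
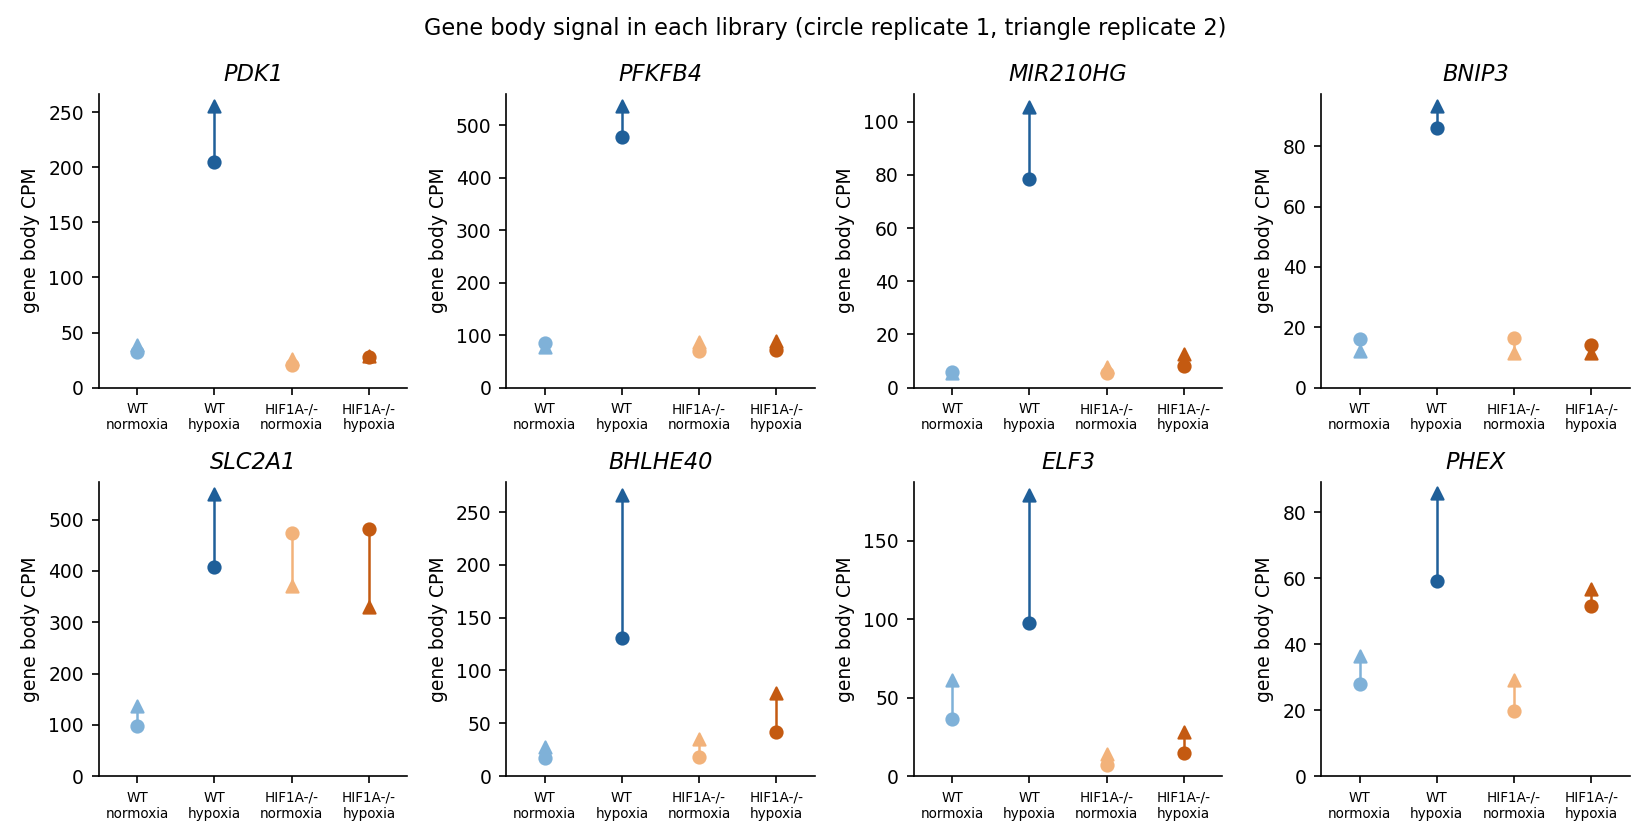
Gene body level (CPM, linear axis from 0) of 8 genes in each of the 8 libraries, with circles for replicate 1, triangles for replicate 2 and a line joining the replicates of a group. WT hypoxia stands apart for PDK1, PFKFB4, MIR210HG and BNIP3, and SLC2A1 is already high in HIF1A-/- normoxia at 474 and 370 CPM. BHLHE40, ELF3 and PHEX were also called higher in HIF1A-/- cells.

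The other genes among the 15 also had both WT hypoxia libraries above the other 6. BHLHE40, described further on, was called higher in HIF1A-/- cells as well. The HIF1A-/- log2 responses of the rest, none of them called by edgeR, were 0.41 (NDRG1), 0.34 (BNIP3L), 0.08 (QSOX1), 0.05 (LDHA), 0.01 (INSIG2), -0.0002 (KDM4B), -0.14 (FAM162A) and -0.16 (P4HA1). QSOX1, a sulfhydryl oxidase that forms disulfide bonds in secreted proteins, had a log2 difference of 1.44 ± 0.13, and INSIG2, which retains the sterol sensor SCAP in the endoplasmic reticulum, one of 2.21 ± 0.23. FAM162A, a mitochondrial protein linked to hypoxic cell death, reached 2.65 ± 0.24, BNIP3L, a mitophagy receptor related to BNIP3, 2.70 ± 0.28, and NDRG1, a stress-responsive gene linked to differentiation, 2.56 ± 0.21. P4HA1, a catalytic subunit of the collagen prolyl hydroxylase, reached 2.50 ± 0.23, and LDHA, which turns pyruvate into lactate, 1.61 ± 0.17. KDM4B, an H3K9 and H3K36 demethylase, went from 194 and 212 CPM to 560 and 577 CPM in WT cells and from 226 and 271 CPM to 243 and 253 CPM in HIF1A-/- cells. Its HIF1A-/- hypoxia values lay within the range of its HIF1A-/- normoxia values. Across all 64 genes both WT hypoxia libraries exceeded the other 6 at 62, against 8.74% of all bodies tested, and the exceptions were SLC2A1 and FOSL2. The 64 were picked on these same libraries, so this count describes them and is not separate evidence.

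The promoters of several of these genes show how the core motif lies around the start site. Each of the first 6 stretches below belongs to a gene whose response differed between the lines, GPI being shown as one of the 17 of the 64 promoters that held no match. BHLHE40 was called both for the difference and in HIF1A-/- cells, and the last 3 belong to other genes whose bodies were called higher in HIF1A-/- cells. All are 100 bases of GRCh37, written 5′ to 3′ on the strand of the gene, with every ACGTG or GCGTG and every reverse complement of them in capitals.
PDK1 (chr2:173420526-173420625, plus strand): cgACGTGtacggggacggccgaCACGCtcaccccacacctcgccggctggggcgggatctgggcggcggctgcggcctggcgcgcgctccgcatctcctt
P4HA1 (chr10:74856703-74856802, minus strand): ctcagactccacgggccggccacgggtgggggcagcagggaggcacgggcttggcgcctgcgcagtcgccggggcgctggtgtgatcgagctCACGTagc
LDHA (chr11:18415835-18415934, plus strand): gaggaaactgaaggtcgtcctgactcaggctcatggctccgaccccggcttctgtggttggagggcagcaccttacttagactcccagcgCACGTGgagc
ANKRD37 (chr4:186317759-186317858, plus strand): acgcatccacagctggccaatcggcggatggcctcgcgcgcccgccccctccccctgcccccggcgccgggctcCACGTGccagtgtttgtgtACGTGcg
FAM162A (chr3:122102902-122103001, plus strand): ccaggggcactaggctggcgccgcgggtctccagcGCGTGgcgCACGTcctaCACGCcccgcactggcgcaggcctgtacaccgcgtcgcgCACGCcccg
GPI (chr19:34855874-34855973, plus strand): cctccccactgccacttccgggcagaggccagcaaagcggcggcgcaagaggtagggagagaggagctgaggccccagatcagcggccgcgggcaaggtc
BHLHE40 (chr3:5020866-5020965, plus strand): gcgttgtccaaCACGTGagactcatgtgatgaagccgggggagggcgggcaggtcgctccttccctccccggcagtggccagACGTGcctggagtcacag
ELF3 (chr1:201979539-201979638, plus strand): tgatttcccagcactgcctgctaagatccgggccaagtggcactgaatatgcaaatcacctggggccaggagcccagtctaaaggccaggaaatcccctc
LINC01619 (chr12:92536658-92536757, minus strand): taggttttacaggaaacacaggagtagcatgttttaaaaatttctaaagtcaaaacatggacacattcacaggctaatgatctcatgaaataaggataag
PHEX (chrX:22050311-22050410, plus strand): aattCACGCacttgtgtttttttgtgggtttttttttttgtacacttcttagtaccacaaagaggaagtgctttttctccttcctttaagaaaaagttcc

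The PDK1 promoter holds ACGTG at position -168 from the start site, the first base of the motif being counted, and GCGTG on the other strand at -148. LDHA holds ACGTG on both strands at -10 and -9, since the letters CACGTG read the same on either strand, and again at -194. P4HA1 holds 1 match, 23 bases into the transcribed region, and FAM162A holds 4 between -85 and -29. BHLHE40 holds 4 ACGTG, at -219, -218, -148 and -123. In GPI, ELF3 and LINC01619, and in LINCR-0002, which is not shown, no match was found in the 300 bases searched, and in PHEX the single match was a GCGTG at -246. A match is a string of letters and not a measured binding site.

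The search covered 250 bases before and 50 bases from each start site on both strands. ACGTG occurred in 34 of the 64 promoters (53.1%), against 24.3% of the 16686 promoters of all bodies tested, 31.3% of the 559 whose bodies were higher in WT hypoxia without a called difference and 25% of the 296 lower in WT hypoxia. GCGTG occurred in 48.4% of the 64 and in 46.2% of all. With every CACGTG masked, ACGTG still occurred in 43.8% of the 64 and in 17.2% of all, and CACGTG itself in 21.9% and 8.8%. The median GC content was 67% in the 64 windows and 63% in all, and its part in these shares was not tested.

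Of the 17 gene lists examined, glucose transport and glycolysis held the most called differences. The lists and their members were chosen with earlier results of these data known. Their counts here and below are thus descriptions, and enrichment was not tested. Of 20 genes listed, 10 rose more in WT than in HIF1A-/- cells, against 0.384% of all bodies. In WT hypoxia 19 were called higher, against 3.73% of all bodies. None was called in HIF1A-/- cells, where edgeR called only 0.03% of all bodies higher and 0.00599% lower. The median log2 response was 1.41 in WT cells and -0.0047 in HIF1A-/- cells, and the median difference was 1.42, against -0.02 over all bodies. The 10 were the glucose transporter SLC2A1, the isomerase GPI, PFKFB4, the aldolases ALDOA and ALDOC, the kinase PGK1, the mutase PGAM1, the enolase ENO2, the pyruvate kinase PKM and LDHA. Many glycolytic genes have processed pseudogenes, so reads from near-identical copies could have been lost or shared at these genes.

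GPI, which converts glucose-6-phosphate to fructose-6-phosphate, had 213 and 157 CPM and then 833 and 1003 CPM in WT cells, and 232 and 140 CPM and then 211 and 131 CPM in HIF1A-/- cells. Its WT hypoxia values were clear of the other 6, with a log2 difference of 2.48 ± 0.30. PGK1, which makes ATP in the later steps of glycolysis, went from 83.1 and 62.5 CPM to 214 and 304 CPM in WT cells and from 88.3 and 68.7 CPM to 64.7 and 51.4 CPM in HIF1A-/- cells. Both HIF1A-/- hypoxia values lay below both HIF1A-/- normoxia values, and that log2 response of -0.43 was not called (edgeR adjusted p = 0.554).

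SLC2A1, the main basal glucose transporter, was the exception in its starting level. It had 98.3 and 137 CPM and then 408 and 551 CPM in WT cells, and 474 and 370 CPM and then 483 and 329 CPM in HIF1A-/- cells. HIF1A-/- cells thus transcribed it in normoxia at about the level that WT cells reached in hypoxia, and its HIF1A-/- log2 response was -0.06. The difference of 2.08 ± 0.34 was called (edgeR adjusted p = 0.0697), and it was called in 9 of 15 other settings. SLC2A3, a high-affinity glucose transporter, also began higher in HIF1A-/- cells, at 39.5 and 30.1 CPM against 2.03 and 2.76 CPM, and its difference of 1.58 ± 0.61 was not called (edgeR adjusted p = 0.88). Across the 64 genes such a shift was not general: the median log2 ratio of HIF1A-/- to WT normoxia was -0.016, with a range of -3.19 to 1.84. Both HIF1A-/- normoxia libraries lay above both WT ones at 11 of the 64 (17.2%, against 14.8% of all bodies). They lay below both at 18 (28.1%, against 17.4%).

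For several glycolytic genes the difference was large without being called. HK2, the hexokinase that commits glucose to metabolism, went from 105 and 112 CPM to 540 and 711 CPM in WT cells and from 86.9 and 49.1 CPM to 106 and 56.3 CPM in HIF1A-/- cells, a difference of 2.29 with a 95% interval of 1.35 to 3.24 (edgeR adjusted p = 0.109). ENO1, the main enolase, went from 356 and 358 CPM to 756 and 980 CPM in WT cells and from 362 and 260 CPM to 375 and 268 CPM in HIF1A-/- cells. Its WT groups were well apart. The HIF1A-/- groups overlapped, though hypoxia was slightly higher within each replicate. The interval of the difference was 0.62 to 1.87 (edgeR adjusted p = 0.272). HK1, another hexokinase, had a difference of 0.84 and an interval of 0.50 to 1.18 (edgeR adjusted p = 0.109). PFKM, the muscle-type phosphofructokinase, was the gene of the list not called in WT cells, at a log2 response of -0.03. Both HK1 and ENO1 passed the threshold in some settings, in 3 and 5 of 15.

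**Figure D3:**
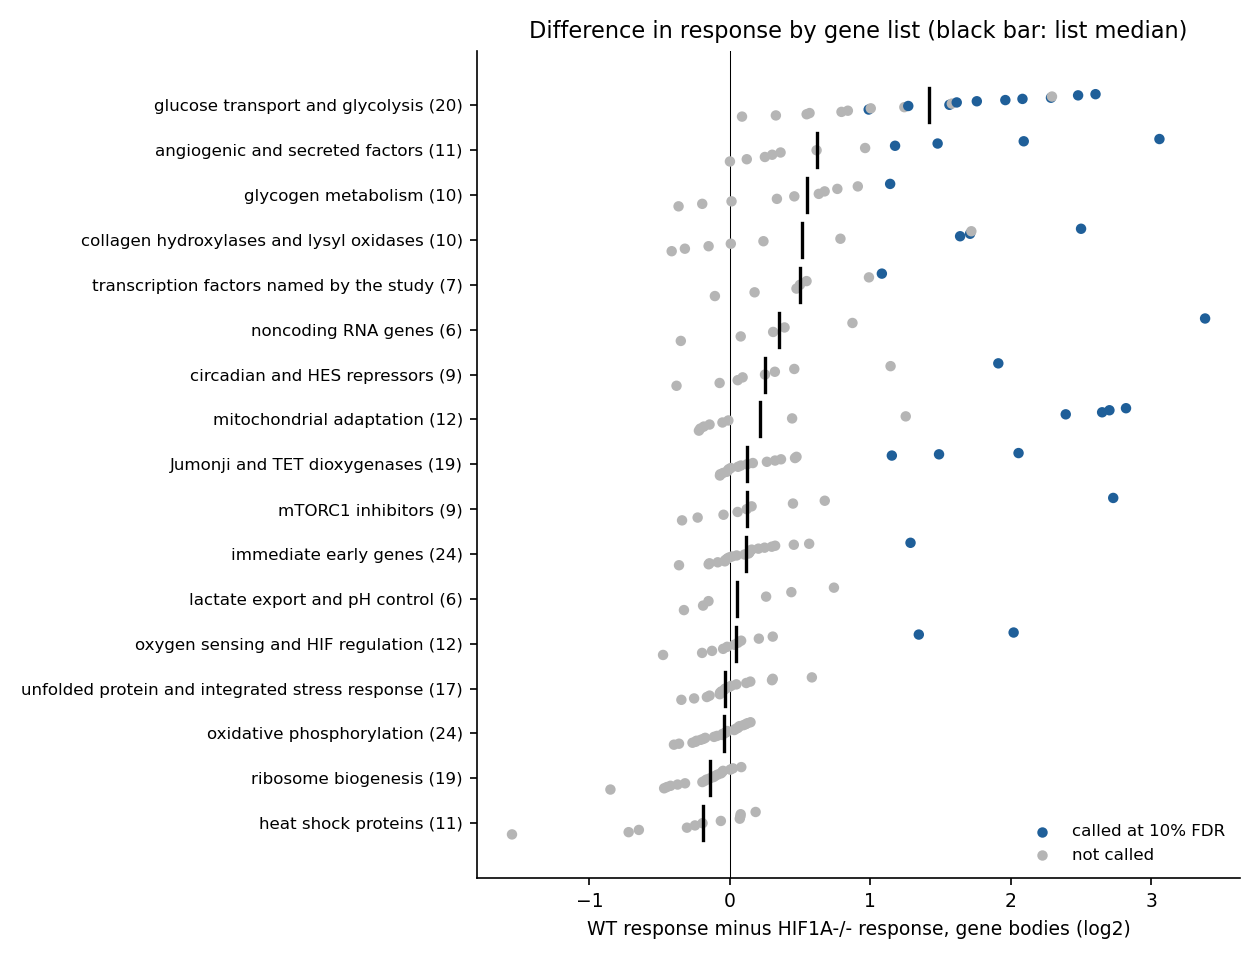
Log2 difference in gene body response (WT minus HIF1A-/-) for each tested gene of the 17 lists, with the number tested in parentheses, called genes in blue and the list median as a black bar. The glycolysis list sits furthest to the right, with a median of 1.42, and the heat shock, ribosome biogenesis, oxidative phosphorylation and stress response lists hold no called gene.

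Of the genes of the oxygen-sensing pathway itself, few were called. EGLN3 and EGLN1, prolyl hydroxylases that act on the HIF alpha subunits, were called among 12 listed genes, against 0.384% of all bodies, with differences of 2.02 ± 0.25 and 1.34. EGLN3 went from 14.9 and 15.4 CPM to 53.2 and 83.7 CPM in WT cells and from 13.2 and 14.1 CPM to 11.8 and 18.3 CPM in HIF1A-/- cells. The other 10 genes were not called in either line, among them EPAS1, the HIF2 alpha subunit, with 59.2 and 63.7 CPM and then 60 and 74.9 CPM in WT cells, and 26.3 and 46.6 CPM and then 26.7 and 41.1 CPM in HIF1A-/- cells. EPAS1 was lower in the HIF1A-/- libraries and overlapped between conditions in each line. For ARNT, VHL and the factor inhibiting HIF, HIF1AN, the 95% interval of the difference ran from -0.43 to 0.33, from -0.51 to 0.11 and from -0.26 to 0.37.

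Of 12 genes of mitochondrial adaptation, 4 were called, against 0.384% of all bodies, namely PDK1, BNIP3, BNIP3L and FAM162A. PDK3, a further pyruvate dehydrogenase kinase, had a difference of 1.25 with an interval of 0.70 to 1.81 that was not called (edgeR adjusted p = 0.15), and PDK2 and PDK4 had differences of -0.21 and -0.01. Among 10 collagen hydroxylases and lysyl oxidases, P4HA1, PLOD1 and PLOD2 were called, against the same share of all bodies. PLOD1, a lysyl hydroxylase of collagen, had opposite values in the 2 lines. In WT cells 256 and 139 CPM went to 415 and 382 CPM, and in HIF1A-/- cells 263 and 208 CPM went to 160 and 139 CPM. The 2 HIF1A-/- groups did not overlap, but that log2 response of -0.65 was not called (edgeR adjusted p = 0.274). P4HA2, a second prolyl hydroxylase subunit, had log2 responses of 0.66 and -1.06 and a difference of 1.72 that was not called (edgeR adjusted p = 0.318).

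Of 11 angiogenic and secreted factors, 4 were called, against 0.384% of all bodies: the angiogenic growth factor VEGFA, the vasodilator peptide ADM, the lipase inhibitor ANGPTL4 and the glycoprotein hormone STC2. VEGFA went from 54.6 and 46.8 CPM to 113 and 122 CPM in WT cells and from 36.7 and 37.6 CPM to 37.6 and 38.5 CPM in HIF1A-/- cells. All 4 HIF1A-/- libraries lay between 36.7 and 38.5 CPM, and the difference was 1.18 ± 0.15. ANGPTL4 went from 10.4 and 10.1 CPM to 81.3 and 205 CPM in WT cells and from 21.2 and 26.4 CPM to 32.7 and 41.9 CPM in HIF1A-/- cells. Its HIF1A-/- hypoxia libraries lay above the normoxia libraries, with a log2 response of 0.64 that was not called (edgeR adjusted p = 0.497). PDGFB, a platelet-derived growth factor, had log2 responses of 0.57 and 0.45 in WT and HIF1A-/- cells, and the interval of the difference was -0.29 to 0.53.

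Among 19 Jumonji and TET dioxygenases, enzymes that demethylate histones or oxidise methylcytosine, KDM3A, KDM4B and KDM4C were called, against 0.384% of all bodies, and 6 of the 19 were called higher in WT cells, against 3.73%. The median difference of the list was 0.12. MXI1, a repressor that antagonises MYC, was the single called member of 7 transcription factors that the study singled out, and that list is not independent of these libraries. MXI1 went from 44.7 and 55.1 CPM to 97.2 and 141 CPM in WT cells and from 36.5 and 49.4 CPM to 42.5 and 52.9 CPM in HIF1A-/- cells. There the conditions overlapped, though hypoxia was higher within each replicate. The MXI1 difference of 1.08 was called (edgeR adjusted p = 0.0205), and it was called in 9 of 15 other settings. FOSL2, an AP-1 subunit, was the single called gene of 24 immediate early genes, at 46.6 and 40.7 CPM and then 117 and 134 CPM in WT cells against 122 and 123 CPM and then 148 and 142 CPM in HIF1A-/- cells. Like SLC2A1 it began in HIF1A-/- normoxia near its WT hypoxia level. GBE1, the glycogen branching enzyme, was called among 10 glycogen genes, DDIT4 among 9 mTORC1 inhibitors and MIR210HG among 6 noncoding RNA genes, and no gene was called among 6 of lactate export and pH control.

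A median log2 difference of 1.06, with a range of 0.74 to 3.18, was found over the 26 remaining called genes, named after their values were seen. They were left once the lists and the most certain calls were set apart, so their median is not compared with those. They included SAP30, a subunit of the SIN3 histone deacetylase complex, at 1.81, WSB1, a ubiquitin ligase adaptor, at 1.52, PPFIA4, a liprin scaffold protein, at 1.23, and the zinc finger proteins ZNF395, ZNF292 and ZNF160. The others were ANKZF1, BBX, BCKDHA, C4orf3, C4orf47, DARS-AS1, HERC3, LGALS8, LINC00673, LOC284930, LRP2BP, MOB3A, NARF, OXSM, RIC1, RIMKLA, RLF, SDAD1P1, SLC1A1 and TNIP1. Over all 64 called genes, on 18 chromosomes, 5 had another called gene within 100 kb: ANKRD37, C4orf47 and LRP2BP on chromosome 4 and BNIP3L and SDAD1P1 on chromosome 8. ANKRD37, C4orf47 and LRP2BP start within 50335 bp of each other, and LRP2BP runs on the opposite strand. SDAD1P1 is a pseudogene, so its reads may include some from its parent gene.

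Both a response in HIF1A-/- cells and a difference between the lines were called for BHLHE40, a basic helix-loop-helix repressor of the circadian clock. It had 17.3 and 27.4 CPM and then 130 and 266 CPM in WT cells, and 18.2 and 34.6 CPM and then 41.5 and 79 CPM in HIF1A-/- cells. Both lines rose clear of their own normoxia libraries, the WT line further. The log2 response was 3.10 in WT cells and 1.19 in HIF1A-/- cells (edgeR adjusted p = 0.0257), and the difference of 1.91 ± 0.15 was also called (edgeR adjusted p = 0.00286). HIF1A-/- cells retained 0.383 of the WT log2 response, the largest retained share of the 64 genes, and the other 63 retained less than 0.25. Of those 63, the HIF1A-/- response was not called for any, and of all bodies 0.03% were called higher there and 0.00599% lower. An unadjusted p under 0.05 (edgeR) was reached by 6 in the direction of WT and 3 in the opposite one. Over all bodies 5.51% reached it upwards and 4.11% downwards. Both HIF1A-/- hypoxia libraries lay above both HIF1A-/- normoxia libraries at 15 of the 64 (23.4%), against 12% of all bodies. The 64 were picked on a difference that includes this response. BHLHE41, a close relative of BHLHE40, had log2 responses of 1.71 and 0.57 and a difference of 1.14 that was not called (edgeR adjusted p = 0.3).

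Responses without a called difference were the largest class, and they do not form a group of equal responses. Of the genes called in WT cells, 855 had no called difference, 559 of them higher and 296 lower. The 559 had a median log2 response of 0.68 in WT cells and 0.23 in HIF1A-/- cells, and the 296 had medians of -0.46 and -0.19. The 95% interval of the difference, not adjusted for the number of bodies, excluded 0 for 276 of the 559 and 84 of the 296. Over all 16686 bodies it did so for 913. These genes were picked on the WT response, which is part of the difference. The interval lay within 1.5-fold for 88 of the 559 and 131 of the 296. For those 88 the medians were 0.44 in WT and 0.35 in HIF1A-/- cells, and for those 131 they were -0.41 and -0.31. The mean response of both lines, tested in the same fit, was called higher for 996 bodies (5.97%) and lower for 688 (4.12%). These counts too rested on the replicate term and on single libraries. Without the term 63 genes had a WT call and no called difference, and the mean response was called for 15 higher and 0 lower. The 855 became 92 without WT hypoxia replicate 2, 102 without WT normoxia replicate 2, 349 and 366 without HIF1A-/- hypoxia replicate 1 or 2 and 399 without WT hypoxia replicate 1. With 1 library left out the mean response was called higher for 179 (without HIF1A-/- hypoxia replicate 1) to 914 bodies (without HIF1A-/- normoxia replicate 2) and lower for 48 to 577 (without HIF1A-/- hypoxia replicate 1 and without WT normoxia replicate 1).

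The 6 genes called in HIF1A-/- cells by edgeR were BHLHE40 and the following 5. All 6 moved the same way in WT cells with an unadjusted p under 0.05 there, a class that held 135 genes in DESeq2 with the replicate term, 0 without the term and 1 to 8 with a library left out. LINCR-0002, a long noncoding RNA, went from 2.77 and 9.21 CPM to 14.2 and 47.6 CPM in WT cells and from 1.82 and 7.32 CPM to 8.76 and 31.5 CPM in HIF1A-/- cells. Replicate 2 was the higher in every group, and within each replicate hypoxia exceeded normoxia in both lines. Its log2 responses were 2.37 and 2.16, and the interval of the difference was -0.28 to 0.70. PHEX, an endopeptidase linked to phosphate balance, went from 28 and 36.5 CPM to 59.2 and 85.9 CPM in WT cells and from 19.9 and 29.2 CPM to 51.5 and 56.8 CPM in HIF1A-/- cells. Its responses of 1.16 and 1.17 gave a difference of -0.01 with an interval of -0.40 to 0.39.

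ELF3, an epithelial ETS factor, went from 36.5 and 61.1 CPM to 97.4 and 179 CPM in WT cells and from 7.32 and 13.8 CPM to 14.6 and 28 CPM in HIF1A-/- cells. The level was several times lower in HIF1A-/- cells in both conditions, while the log2 responses were 1.48 and 1.01, with an interval of the difference of 0.15 to 0.80. LINC01619, a long noncoding RNA, had log2 responses of 1.56 and 0.98 and an interval of 0.24 to 0.92. BANP, a nuclear matrix protein that binds CG-containing DNA, was the single gene called lower in HIF1A-/- cells. It went from 218 and 104 CPM to 98.3 and 48.3 CPM in WT cells and from 200 and 129 CPM to 63.6 and 50.5 CPM in HIF1A-/- cells. In WT cells replicate 2 in normoxia was close to replicate 1 in hypoxia, and in HIF1A-/- cells the conditions were apart.

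ETS1, SMAD3 and SMAD9, transcription factors of the ETS family and of TGF-beta and BMP signalling, were not called for the difference. Their log2 responses were 0.51, 0.82 and 1.26 in WT cells and 0.62, 0.65 and 0.77 in HIF1A-/- cells, and none of the HIF1A-/- responses was called (edgeR adjusted p from 0.292 to 0.334). ETS1 stood at 24.4 and 30.8 CPM in WT normoxia and at 4.83 and 6.67 CPM in HIF1A-/- normoxia. FOXO3, a stress-responsive forkhead factor, had log2 responses of 0.74 and 0.19 and an interval of the difference of 0.25 to 0.84 (edgeR adjusted p = 0.338). Among the genes with the difference closest to 0, TCP1, a subunit of the cytosolic chaperonin, had a log2 response of -0.55 in each line with an interval of -0.27 to 0.27, and FAM193A had -0.42 in each with -0.26 to 0.25. TXNRD3NB, KIAA1656 and NATD1 had 0.53, 0.46 and 0.77 in each line.

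Some protein-folding genes were called lower in WT hypoxia, and none was called for the difference between the lines. Among 11 heat shock genes, cytosolic apart from the mitochondrial chaperonin HSPD1, 6 were called lower in WT cells, against 1.77% of all bodies. None was called in HIF1A-/- cells, where edgeR called only 1 of all bodies lower (0.00599%). The median log2 responses were -0.69 and -0.49. The 6 were HSPA1B, HSPH1, HSP90AA1, HSP90AB1, DNAJA1 and HSPD1. In that order their hypoxia levels were 0.412, 0.396, 0.68, 0.7, 0.616 and 0.695 of normoxia in WT cells. In HIF1A-/- cells they were 0.646, 0.377, 0.778, 0.832, 0.644 and 0.659. HSPA1A and HSPA8, chaperones of the HSP70 family, had log2 responses of -1.67 and -0.86 in WT cells and -0.12 and -0.14 in HIF1A-/- cells, none of them called, and intervals of the difference of -3.11 to 0.0048 and -1.99 to 0.55. HSPA1A lay below 1.4 CPM in every library. HSPA1B, a near-identical copy of HSPA1A, had responses of -1.28 and -0.63. HSPD1 went from 324 and 218 CPM to 229 and 149 CPM in WT cells and from 376 and 229 CPM to 247 and 152 CPM in HIF1A-/- cells. Within each replicate hypoxia was lower than normoxia in both lines, and the interval of the difference was -0.19 to 0.34. Among 17 genes of the unfolded protein and integrated stress responses 6 were called lower in WT cells, against 1.77% of all bodies, with medians of -0.36 and -0.38. DNAJB9, a co-chaperone of the endoplasmic reticulum, had log2 responses of 0.18 and -0.40, and the interval of the difference was 0.15 to 1.02 (edgeR adjusted p = 0.768). HSPA5, the main chaperone of the endoplasmic reticulum, had log2 responses of -0.61 and -0.66. For 19 ribosome biogenesis genes the median was -0.27 in WT cells and -0.09 in HIF1A-/- cells, and for 24 oxidative phosphorylation genes -0.18 and -0.14, and NDUFS3, a subunit of respiratory complex I, was the single gene of the 2 lists called in either line.

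At TSS regions the difference was called for 7 genes (0.046%), each with a larger WT increase, and for none in the other direction, where 204 (1.34%) had an unadjusted p under 0.05 in edgeR and DESeq2 called 0. The 7 were LOC105370526, ANKRD37, NDRG1, ANGPTL4, PIGS, CAND1.11 and LOC102723582. Leaving out 1 library moved the count between 2, without WT hypoxia replicate 2 or HIF1A-/- hypoxia replicate 2, and 20, without HIF1A-/- normoxia replicate 2, and it was 1 without the replicate term. The others past 1.5 times were 4 without WT normoxia replicate 2 or HIF1A-/- hypoxia replicate 1 and 17 without HIF1A-/- normoxia replicate 1.

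LOC105370526, an uncharacterised noncoding gene, showed the largest difference among the called gene bodies. Its body (chr14:62182275-62216814, minus strand, GRCh37) runs antisense to that of HIF1A (chr14:62163119-62214977, plus strand), and the 2 share 32703 bp. Its TSS level was 29.3 and 52.5 CPM and then 166 and 297 CPM in WT cells, and 53.9 and 57.4 CPM and then 56.4 and 68.8 CPM in HIF1A-/- cells. Its body level was 2.92 and 2.48 CPM, then 69.1 and 120 CPM in WT cells, and 11.1 and 4.65 CPM, then 9.31 and 7.32 CPM in HIF1A-/- cells. WT hypoxia stood apart in both readouts, whereas the HIF1A levels given above overlapped between the conditions of each line. The log2 difference was 5.05 ± 0.60 in the body (edgeR adjusted p = 0.0168) and 2.33 ± 0.25 at the TSS (edgeR adjusted p = 1.54e-05). The library type is strand-specific per the labels, so reads of the 2 genes could be separated. HIF1A is also the gene edited in the HIF1A-/- line, and a local effect of that edit on LOC105370526 was not tested. ANKRD37, an ankyrin repeat protein, had TSS levels of 43.5 and 48.8 CPM, then 189 and 270 CPM in WT cells, and 40.2 and 36 CPM, then 40.5 and 39.9 CPM in HIF1A-/- cells, where the conditions overlapped.

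Of the 7 TSS regions, 3 belonged to genes whose own bodies had no called difference, and each lay downstream of a called gene on the same strand. PIGS, a subunit of the GPI transamidase, starts 1245 bp past the end of the ALDOC body. Its TSS level went from 20.4 and 21.9 CPM to 66.4 and 86.2 CPM in WT cells and from 31.8 and 28.1 CPM to 26.2 and 29.9 CPM in HIF1A-/- cells, while its body stayed between 29 and 38.3 CPM in all 8 libraries. CAND1.11, a noncoding gene, starts 910 bp past the end of the ADM body, and LOC102723582 starts 6091 bp past the end of the FAM162A body. Their TSS differences were 2.10 ± 0.34 and 1.07 ± 0.18, beside body differences of 0.86 and 0.37 that were not called. The part of reads from the upstream genes in these values was not tested.

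The pausing index divides the read density of the TSS region by that of the gene body. Its difference between the lines was called lower in WT cells for 20 of 14494 genes (0.138%) and higher for 1, PIGS (0.0069%), and 19 of the 20 were among the 64 genes above. Since their body counts stand in the denominator, this is a description and not separate evidence. P4HA1 had an index of 271 and 354 and then 90.6 and 83.9 in WT cells, and 343 and 328 and then 393 and 355 in HIF1A-/- cells. It fell in WT cells in both replicates, and its HIF1A-/- log2 change was 0.16. FAM162A had 179 and 201, then 60.5 and 43 in WT cells, and 193 and 188, then 202 and 252 in HIF1A-/- cells. FUT11, a fucosyltransferase, had 42 and 48, then 14.9 and 11.5 in WT cells, against 34.6 and 47.5, then 43.5 and 51.2 in HIF1A-/- cells, and its TSS log2 response of -0.24 in WT cells was not called (edgeR adjusted p = 0.477).

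Over the 62 called genes tested at the TSS, the median log2 response of the TSS region was 0.55 in WT cells and 0.09 in HIF1A-/- cells, against 1.56 and 0.04 in the body. PDK1 shows the contrast: its TSS level went from 61.3 and 84.3 CPM to 132 and 152 CPM in WT cells, a log2 response of 0.98, beside 2.70 in the body. PFKFB4 had TSS levels between 0.233 and 2.74 CPM in all libraries, so its TSS region gives no usable ratio. Without the replicate term 3 pausing indices were called lower, and none was without HIF1A-/- hypoxia replicate 2, 3 were without HIF1A-/- hypoxia replicate 1, 4 without WT hypoxia replicate 2 and 12 without WT normoxia replicate 2.

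**Figure D4:**
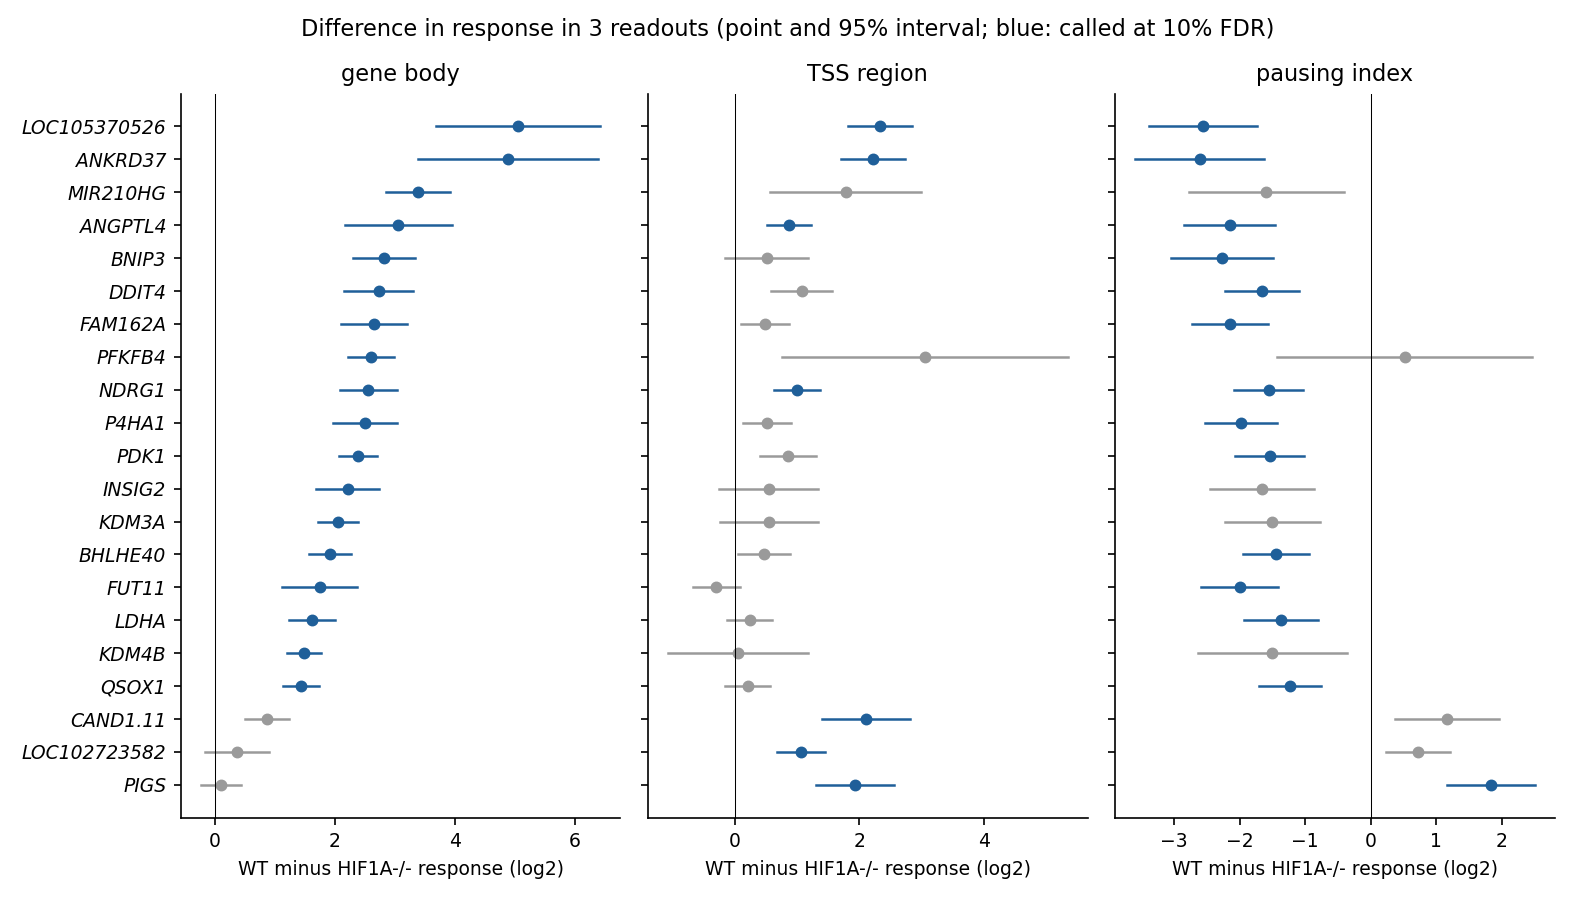
Log2 difference in response (WT minus HIF1A-/-) with its 95% interval for 21 named genes in the gene body, the TSS region and the pausing index, in blue where called. The body differences of the upper 18 genes exceed their TSS differences except at PFKFB4, and CAND1.11, LOC102723582 and PIGS show the reverse.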

How the data were processed

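PRO-seq libraries of WT and HIF1A-/- HCT116 cells were assigned to group and replicate from the sample labels. Per the labels, the study's methods and the submitters' processing notes, the authors trimmed reads (FastQC 0.11.5 for quality), aligned them to GRCh37/hg19 with HISAT2 2.1.0 without splicing, kept a mapping quality above 10 (SAMtools 1.5), merged sequencing runs and counted reads with featureCounts (Subread 1.6.2). The deposited values are raw counts for 1 TSS region of 551 bp and 1 gene body per RefSeq gene, so other start sites and ambiguous reads cannot be recovered. The methods describe independent preparations of nuclei for the replicates.

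Counts were fitted with edgeR 4.0.16 (TMM scaling, quasi-likelihood test, R 4.3.3) over all 8 libraries, with group and replicate number as terms and Benjamini-Hochberg adjustment over all features with CPM above 0.5 in at least 2 libraries. Calls were made at 10%. Same-numbered libraries deviated together (correlations of deviations from the group means of 0.484 to 0.790 over 6 pairs of groups in bodies and 0.216 to 0.519 at TSS regions), so the number was taken to pair them. The pausing index was tested as TSS against body counts within each library in 16 columns, and printed values use a pseudocount of 0.5. Log2 values carry the SE of the fit, CPM values are per library, and RPKM divides by region length. DESeq2 1.42.0, other scalings, filters and left-out libraries were alternatives. The fits were tested on simulated data. Named genes were the genes the study discusses, the most certain calls (15 gene bodies, 5 TSS regions and 5 pausing indices in each direction, changed the same way in both pairs), the genes called in HIF1A-/- cells, the 5 uncalled genes closest to a difference of 0, and list members. Members and lists were chosen with earlier results of these data known.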

Additional observations from a re-analysis of the deposited data

Results flagged for a closer look

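The results below were picked out because the hypoxia response itself differed between the 2 lines in edgeR's interaction test at a false discovery rate of 10%. They comprise the 64 gene bodies that rose more in WT than in HIF1A-/- cells and the named genes among them. With the log2 difference (WT minus HIF1A-/-) in parentheses, the named gene bodies were PDK1 (2.39), SLC2A1 (2.08), MXI1 (1.08), DDIT4 (2.73), KDM3A (2.06), PFKFB4 (2.60), MIR210HG (3.38), BHLHE40 (1.91), BNIP3 (2.82), NDRG1 (2.56), KDM4B (1.49), QSOX1 (1.44), FAM162A (2.65), P4HA1 (2.50), INSIG2 (2.21), LDHA (1.61), BNIP3L (2.70), LOC105370526 (5.05), ANKRD37 (4.89), FUT11 (1.74) and ANGPTL4 (3.06).

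At TSS regions the named genes were NDRG1 (1.00), LOC105370526 (2.33), ANKRD37 (2.22), PIGS (1.93), CAND1.11 (2.105), LOC102723582 (1.07) and ANGPTL4 (0.87). The pausing index rose more in WT cells at PIGS (1.83), and its log2 difference was negative at PDK1 (-1.54), DDIT4 (-1.66), BHLHE40 (-1.44), BNIP3 (-2.27), NDRG1 (-1.56), QSOX1 (-1.23), FAM162A (-2.15), P4HA1 (-1.98), LDHA (-1.37), LOC105370526 (-2.56), ANKRD37 (-2.61), FUT11 (-2.001) and ANGPTL4 (-2.15). The body counts enter the pausing index, so the body and index values of a gene are not separate results.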

How the results depend on the processing

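For gene bodies that rose more in WT cells (64), no replicate block gave 9 and DESeq2 with the replicate term 122, and single libraries left out gave 18 to 81. All 64 kept their sign in every setting that tested them, and 58 to 64 were called again under other scalings, no filter on low counts and DESeq2 with the term, 61 of 63 with CPM above 1 in every library, 57 in DESeq2 without the block (an alternative added after seeing the data), 9 without the block in edgeR and 18 to 54 with a library left out. Bodies that rose less in WT cells (0) numbered 0 to 18 with a library left out, the 18 without WT normoxia replicate 1.

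TSS regions higher (7) became 1 without the replicate block, 21 with no filter and 3 in DESeq2 without the block, and 2 to 20 with a library left out, and regions lower (0) became 0 to 2. Pausing indices lower (20) became 3 and higher (1) became 0 without the block, and 0 to 26 and 0 to 17 with a library left out.

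The WT response (623 higher, 296 lower) became 72 and 0 without the block and 174 and 1 in DESeq2 without the block, 152 lower with library totals, and 103 to 679 higher and 2 to 348 lower with a library left out. The HIF1A-/- response (5 higher, 1 lower) became 0 and 0 without the block, 64 and 98 in DESeq2 with the term, 2 and 6 in DESeq2 without it, 15 and 34 with no filter, 0 lower with library totals or with CPM above 1 in every library, and 1 to 5 higher and 0 to 3 lower with a library left out. The mean response (996 higher, 688 lower) became 15 and 0 without the block, 167 and 49 in DESeq2 without it, 376 lower with library totals, and 179 to 914 higher and 48 to 577 lower with a library left out.

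Genes with little retained (63), partly retained (1), shared (6) and unresolved (855) responses numbered 9, 0, 0 and 63 without the block and 116, 5 and 135 for the first 3 in DESeq2 with the term, and 17 to 79, 1 to 3, 1 to 8 and 92 to 855 with a library left out. Of the 43 named gene bodies, 33 kept the sign of their difference in every setting that tested them. The other 10, none of them called in any setting where the sign turned (lowest adjusted p 0.814 in edgeR or DESeq2), had log2 differences whose sign turned. Without the block the turned values were PHEX 0.029, TXNRD3NB 0.00052, TCP1 0.0073 and KIAA1656 -0.018. In DESeq2 with the term the turned values were PHEX 0.0029, TXNRD3NB 0.0096, TCP1 0.0090, FAM193A 0.0060 and NATD1 0.0091. With DESeq2 size factors the turned values were PHEX 0.0038, TXNRD3NB 0.0098, TCP1 0.0089, FAM193A 0.0060 and NATD1 0.0060. With library totals the turned value was KIAA1656 -0.0040. With no filter the turned values were PHEX 0.0013, TXNRD3NB 0.0065, TCP1 0.0064, FAM193A 0.0032 and NATD1 0.0041. With CPM above 1 in every library the turned values were PHEX 0.012, TXNRD3NB 0.018, TCP1 0.017, FAM193A 0.013 and NATD1 0.016. In DESeq2 without the block the turned values were PHEX 0.041, TXNRD3NB 0.012, TCP1 0.016, KIAA1656 -0.0067 and FAM193A 0.0076. With a library left out they ranged from -0.33 to 0.13 (ETS1), from -0.13 to 0.45 (SMAD3), from -0.35 to 0.068 (HIF1A), from -0.059 to 0.45 (EPAS1), from -0.17 to 0.17 (PHEX), from -0.12 to 0.12 (TXNRD3NB), from -0.047 to 0.046 (TCP1), from -0.15 to 0.16 (KIAA1656), from -0.030 to 0.040 (FAM193A) and from -0.25 to 0.25 (NATD1). The cause of these changes was not tested. With 2 libraries per group the fits have 3 residual degrees of freedom, a lone library left in a group is assumed to vary like the others, and TSS regions with few reads give wide intervals.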
